A study of Mus musculus with 16 samples.

Results

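Tecta, Tectb, Otog, Otogl, Otoa and Ceacam16 encode proteins of the tectorial membrane and of the other acellular gels that cover the sensory patches of the inner ear. They were chosen by name, and 5 of the 6 genes had a row among the 36536 genes counted in each library. Otogl (ENSMUSG00000091455) is not analysed here. To follow the production of these proteins between birth and the end of the first postnatal week, with and without Notch signalling, cochleas of LFng-GFP BAC transgenic mice on a mixed B6;FVB background were explanted at postnatal day 0 (P0) or 5 (P5) and kept for 24 hours in 10 µM DAPT or in 0.04% DMSO, its vehicle. DAPT inhibits gamma-secretase, the protease that releases the active fragment of Notch receptors. The explants were dissociated and sorted into GFP+ cells and GFP- cells, which gave 8 groups of 2 libraries.

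All animals carried the transgene, in which Lfng regulatory sequence drives GFP in supporting cells other than inner pillar cells, and all media contained EGF and FGF2. The GFP+ fraction held the brightest cells, and weakly fluorescent cells were left out of the collected fractions. Reissner's membrane and the lateral wall with its stria were dissected away at P0 and only in part at P5, so that a difference with age in GFP- cells cannot be told apart from a difference in the tissue kept. The number of animals behind a library is not given in the sources used here, and nothing states that replicates came from separate animals, so p-values measure the spread between these samples only. In a sorted fraction, fewer cells of a type and less RNA per cell cannot be told apart.

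The tectorial membrane is an extracellular gel that lies over the hair cells and is moved against their bundles by sound. Its collagen fibrils are embedded in a striated sheet of alpha-tectorin (Tecta) and beta-tectorin (Tectb), which are glycosylphosphatidylinositol-anchored proteins related to zona pellucida proteins, together with CEACAM16, a secreted immunoglobulin-domain protein that binds alpha-tectorin. Otogelin (Otog) and otogelin-like (Otogl) are large mucin-related secreted glycoproteins of the tectorial membrane and the vestibular gels. Otoancorin (Otoa) attaches the membrane to the spiral limbus, on the inner side of the cochlear epithelium. These genes are active in epithelial cells around the organ of Corti while the membrane is laid down, in late gestation and the first weeks after birth.

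On the mm9 build (NCBIM37, GENCODE M1) of the counts, all 5 genes were protein-coding, and no other annotated gene overlapped 4 of them. Tecta (ENSMUSG00000037705) lies on chromosome 9 from 42137702 to 42208012 on the minus strand. Tectb (ENSMUSG00000024979) lies on chromosome 19 from 55255223 to 55270803 on the plus strand. Otog (ENSMUSG00000009487) and Otoa (ENSMUSG00000034990) both lie on the plus strand of chromosome 7, from 53496357 to 53566804 and from 128226836 to 128306611. Ceacam16 (ENSMUSG00000014686) lies on the minus strand of chromosome 7 from 20437446 to 20446648, where RP23-191I16.2 overlaps it on the other strand. Whether counting used strand is not given in the sources used here, so reads of that pair could not be told apart.

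Promoter sequence was available from RefSeq (build GRCm38.p6, not the build of the counts) for 4 of the 6 genes and not for Otogl or Ceacam16. The 250 bases before each annotated start are shown because Notch signalling, which DAPT blocks, acts on its target genes through their regulatory DNA. Capitals mark the core recognised by RBPJ, the DNA-binding partner of Notch (TGGGAA, or TTCCCA on the other strand), and E-boxes (CANNTG, which reads the same on both strands), which bind bHLH factors such as the products of Atoh1 and the Hes and Hey genes. Tecta has 2 annotated starts, A (chr9:42401691-42401940, minus strand) and B (chr9:42399948-42400197, minus strand). The Tectb stretch is chr19:55180476-55180725, that of Otog chr7:46240737-46240986 and that of Otoa chr7:121083174-121083423, all on the plus strand.
Tecta start A: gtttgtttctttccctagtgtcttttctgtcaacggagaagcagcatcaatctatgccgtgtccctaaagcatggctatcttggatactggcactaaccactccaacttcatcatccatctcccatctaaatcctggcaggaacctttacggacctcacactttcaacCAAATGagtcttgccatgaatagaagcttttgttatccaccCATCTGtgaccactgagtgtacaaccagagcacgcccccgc
Tecta start B: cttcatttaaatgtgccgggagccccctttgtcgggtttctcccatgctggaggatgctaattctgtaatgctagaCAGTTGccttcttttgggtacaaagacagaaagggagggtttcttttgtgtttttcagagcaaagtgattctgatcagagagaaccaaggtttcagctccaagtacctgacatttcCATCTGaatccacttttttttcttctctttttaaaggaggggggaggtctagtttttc
Tectb: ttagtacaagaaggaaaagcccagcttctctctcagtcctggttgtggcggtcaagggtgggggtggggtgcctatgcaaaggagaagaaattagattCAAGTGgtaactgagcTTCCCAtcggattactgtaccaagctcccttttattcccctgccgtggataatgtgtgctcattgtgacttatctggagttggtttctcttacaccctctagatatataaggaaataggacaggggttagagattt
Otog: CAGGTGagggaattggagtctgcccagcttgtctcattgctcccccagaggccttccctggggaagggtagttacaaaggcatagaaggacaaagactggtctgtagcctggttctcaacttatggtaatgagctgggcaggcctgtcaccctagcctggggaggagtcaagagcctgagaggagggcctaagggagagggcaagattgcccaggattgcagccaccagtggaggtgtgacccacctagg
Otoa: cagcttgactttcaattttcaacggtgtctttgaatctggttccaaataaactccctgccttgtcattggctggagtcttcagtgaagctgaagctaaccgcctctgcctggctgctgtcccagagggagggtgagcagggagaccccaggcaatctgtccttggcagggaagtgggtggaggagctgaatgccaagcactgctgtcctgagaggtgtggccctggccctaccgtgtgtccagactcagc
An RBPJ core was found in the Tectb stretch, where it begins 136 bases before the start, and in none of the other 4 stretches. E-boxes were found in both Tecta stretches (2 each), in Tectb (1) and in Otog (1), and there was none in Otoa. No RBPJ core overlapped an E-box here. Of the 32851 RefSeq stretches of the same length, 21.6% held an RBPJ core and 66.2% an E-box, so these matches describe the letters and do not show that a factor binds.

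Gene counts ranged from 13755356 to 23637236 in the 8 GFP+ libraries and from 34869184 to 45465324 in the 8 GFP- libraries, and the lower totals of GFP+ cells came with 50.05 to 62.02% of records outside annotated genes, against 6.641 to 13.73%. Mitochondrially encoded genes took 23.03 to 34.24% of gene counts in GFP+ libraries and 3.013 to 5.365% in GFP- libraries. The library numbers fell into 3 runs, with all GFP- libraries in the first, the P0 DMSO GFP+ libraries alone in the third and every other GFP+ library in the second. Comparisons of P0 DMSO GFP+ cells with any other group, and of GFP+ with GFP- cells, therefore cannot be told apart from a difference between runs. The P0 DMSO GFP+ libraries also listed 30639 and 31345 genes with a count, against 25651 to 27156 in the other GFP+ libraries. Of 9 supporting cell markers, Lfng among them, 8 rose past the limits used here in GFP+ over GFP- cells at P0 and 7 at P5. The shares of all genes that did so were 25.5% and 18.4%. Of 10 hair cell markers, 1 was higher past the limits in GFP+ cells at P0 and 6 at P5. Their median log2 fold changes were 2.22 and 3.04. Summed markers of mesenchyme stood at 119.6 to 246.5 CPM (counts per 1000000 gene counts) in P0 GFP+ libraries, at 415.8 to 1740 CPM in P5 GFP+ libraries and at 8533 to 14340 CPM in GFP- libraries.

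1 library went against its label. The library labelled P0 DMSO GFP- replicate 2 correlated across genes with the P5 DMSO GFP- mean at r = 0.9963 and with the P0 DAPT GFP- mean at 0.978, whereas replicate 1 correlated at 0.9804 and 0.9958. Its 7 cartilage and bone markers summed to 3621 CPM, against 280 to 360.9 CPM in the other 3 P0 GFP- libraries and 2280 to 3546 CPM in the 4 P5 GFP- libraries. Its 6 neuronal markers summed to 11.89 CPM, against 164.7 to 292.2 CPM and 18.22 to 64.74 CPM in the same libraries. The tests of the 5 genes and of the matrix and secretory gene lists that used it are given with and without it.

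Levels are CPM after normalisation by the trimmed mean of M values (TMM), as mean ± SD of n = 2 libraries. Tectb was the most abundant of the 5 transcripts in supporting cells. Per kilobase of exonic sequence, P0 DMSO GFP+ cells held 1690 ± 190 CPM per kb of Tectb, 296 ± 84.6 of Tecta, 89.3 ± 4.01 of Otog, 3.68 ± 1.12 of Otoa and 0.042 ± 0.0594 of Ceacam16. On this length-scaled measure Tectb exceeded 99.94% of the 24731 genes with sufficient counts, Tecta 99.77% and Otog 98.9%. Summed over the 5 transcripts, the share of gene counts was 0.6676 to 1.317% in GFP+ libraries and 0.1787 to 0.6315% in GFP- libraries, which did not overlap. The plot of levels by library shows the values described next.

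**Figure D1:**
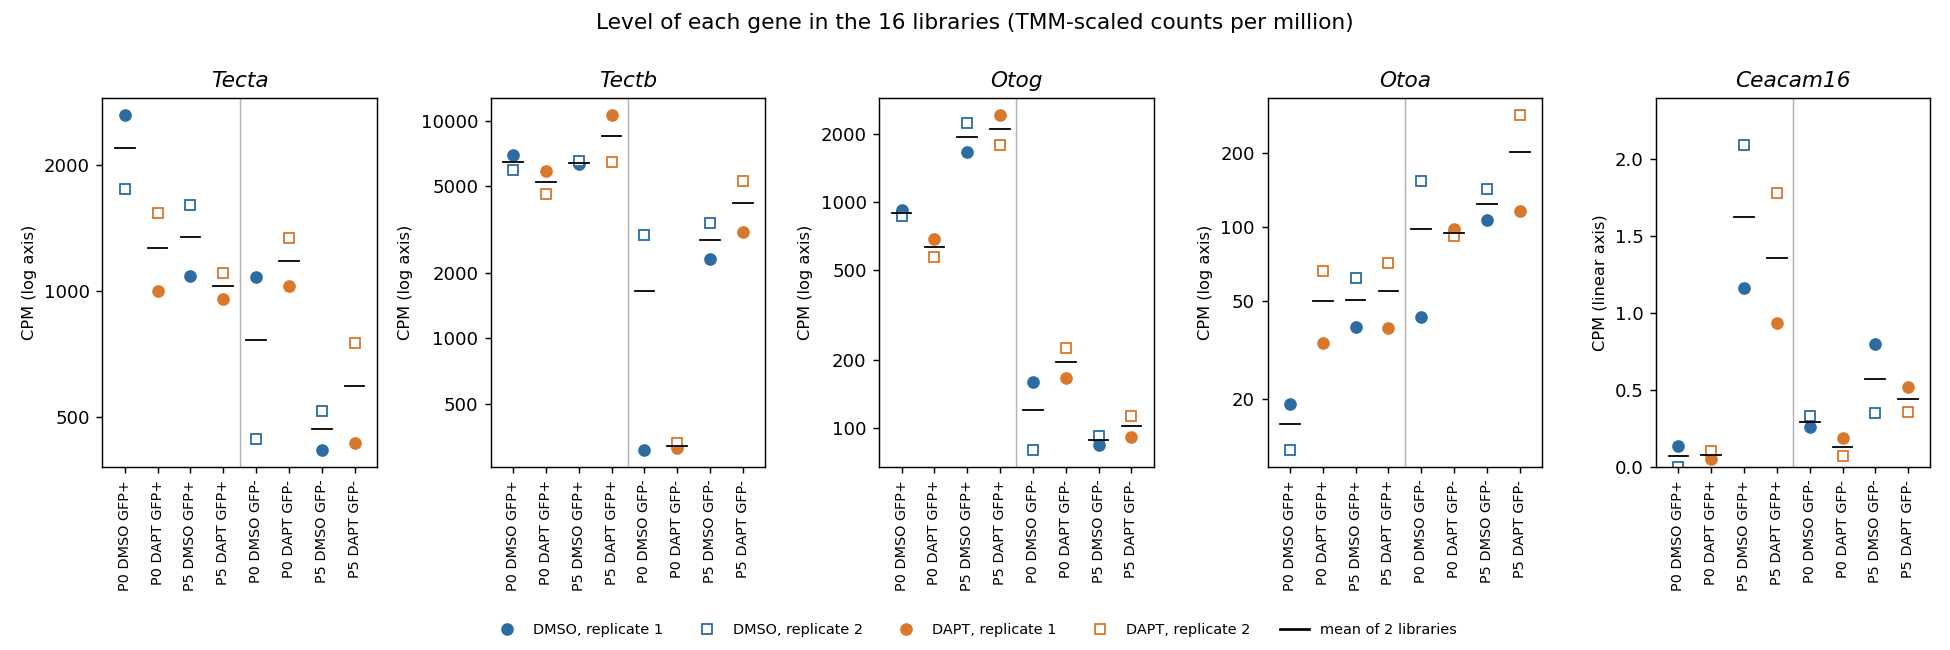
TMM-scaled CPM of Tecta, Tectb, Otog and Otoa (log axes) and Ceacam16 (linear axis) in each of the 16 libraries, with GFP+ groups left and GFP- groups right of the line. Points are libraries, filled for replicate 1 and open for replicate 2, and bars are means of 2. Otog is higher in every GFP+ library than in every GFP- library, Otoa is lowest in the P0 DMSO GFP+ libraries, and the open symbol of P0 DMSO GFP- lies near the P5 GFP- libraries for Tectb.

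Tecta stood at 2640 and 1753 CPM in the P0 DMSO GFP+ libraries and at 1090 and 1610 CPM in the P5 DMSO GFP+ libraries. With DAPT the GFP+ libraries held 999 and 1537 CPM at P0 and 957 and 1103 CPM at P5. P0 DMSO GFP+ cells were thus the highest group, and each of the next 7 groups in order of level overlapped its neighbour. In GFP- cells Tecta was at 1083 and 444 CPM (P0 DMSO), 1028 and 1336 CPM (P0 DAPT), 416 and 518 CPM (P5 DMSO) and 434 and 751 CPM (P5 DAPT). The P0 GFP- values lay above all P5 GFP- values except that of replicate 2 of P0 DMSO, which lay among them.

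Tectb stood at 6970 and 5942 CPM in P0 DMSO GFP+ libraries, 5891 and 4605 CPM in P0 DAPT, 6322 and 6539 CPM in P5 DMSO and 10681 and 6459 CPM in P5 DAPT GFP+ libraries. Its means over the GFP+ groups ran from 5248 ± 909 to 8570 ± 2986 CPM. In GFP- cells it ranged far more widely. The P0 DAPT GFP- libraries held 313 and 330 CPM and replicate 1 of P0 DMSO held 305 CPM, while replicate 2 of P0 DMSO held 3002 CPM. The P5 GFP- libraries held 2306 and 3378 CPM in DMSO and 3100 and 5268 CPM in DAPT. With the library that went against its label set aside, every P5 GFP- library exceeded every P0 GFP- library.

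Otog separated the fractions completely, with 574 to 2445 CPM in the 8 GFP+ libraries and 79.6 to 226 CPM in the 8 GFP- libraries. It was at 925 and 869 CPM in P0 DMSO GFP+, 689 and 574 CPM in P0 DAPT GFP+, 1666 and 2235 CPM in P5 DMSO GFP+ and 2445 and 1802 CPM in P5 DAPT GFP+ libraries. The P5 GFP+ groups overlapped each other and lay above both P0 GFP+ groups, which did not overlap. In GFP- cells Otog was higher in P0 DAPT (167 and 226 CPM) than in P5 DMSO (84.5 and 92.2 CPM) and P5 DAPT (91.6 and 113 CPM), and the P0 DMSO libraries held 159 and 79.6 CPM.

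Otoa showed the opposite preference. It was at 19.1 and 12.4 CPM in P0 DMSO GFP+ libraries, the lowest of all groups, and at 33.6 and 66.0 CPM in P0 DAPT, 39.1 and 62.2 CPM in P5 DMSO and 38.7 and 71.5 CPM in P5 DAPT GFP+ libraries. The 3 latter groups overlapped one another. The GFP- libraries held 42.9 and 153 CPM (P0 DMSO), 98.1 and 91.6 CPM (P0 DAPT), 106 and 142 CPM (P5 DMSO) and 117 and 286 CPM (P5 DAPT), so that every GFP- library except replicate 1 of P0 DMSO exceeded every GFP+ library.

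Ceacam16 was at the edge of detection. The P0 GFP+ libraries held 3 and 0 counts in DMSO and 1 and 2 counts in DAPT, and the count of 0 among 19492664 allows up to 0.154 CPM. At P5 the GFP+ libraries held 19 and 38 counts in DMSO (1.16 and 2.09 CPM) and 12 and 34 counts in DAPT (0.935 and 1.78 CPM). Each P5 GFP+ library exceeded each P0 GFP+ library in CPM. The GFP- libraries held 12 and 12 counts (DMSO) and 9 and 3 counts (DAPT) at P0, and 34 and 14 counts (DMSO) and 22 and 16 counts (DAPT) at P5.

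The balance between the tectorins, expressed as shares of the summed CPM per kb of the 5 transcripts, differed between the fractions at P0. In all 8 GFP+ libraries Tectb took 78.98 to 87.98% and Tecta 4.062 to 15.64%. Replicate 1 of P0 DMSO GFP- and both P0 DAPT GFP- libraries had the reverse order, with Tectb at 27.79 to 31.72% and Tecta at 53.31 to 58.07%. The 4 P5 GFP- libraries held 87.03 to 89.49% of Tectb, and replicate 2 of P0 DMSO GFP- held 88.34%. Per length there were 1.695 to 2.09 Tecta transcripts for each Tectb transcript in the 3 former P0 GFP- libraries and 0.07222 to 0.0931 in the P5 GFP- libraries.

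**Figure D2:**
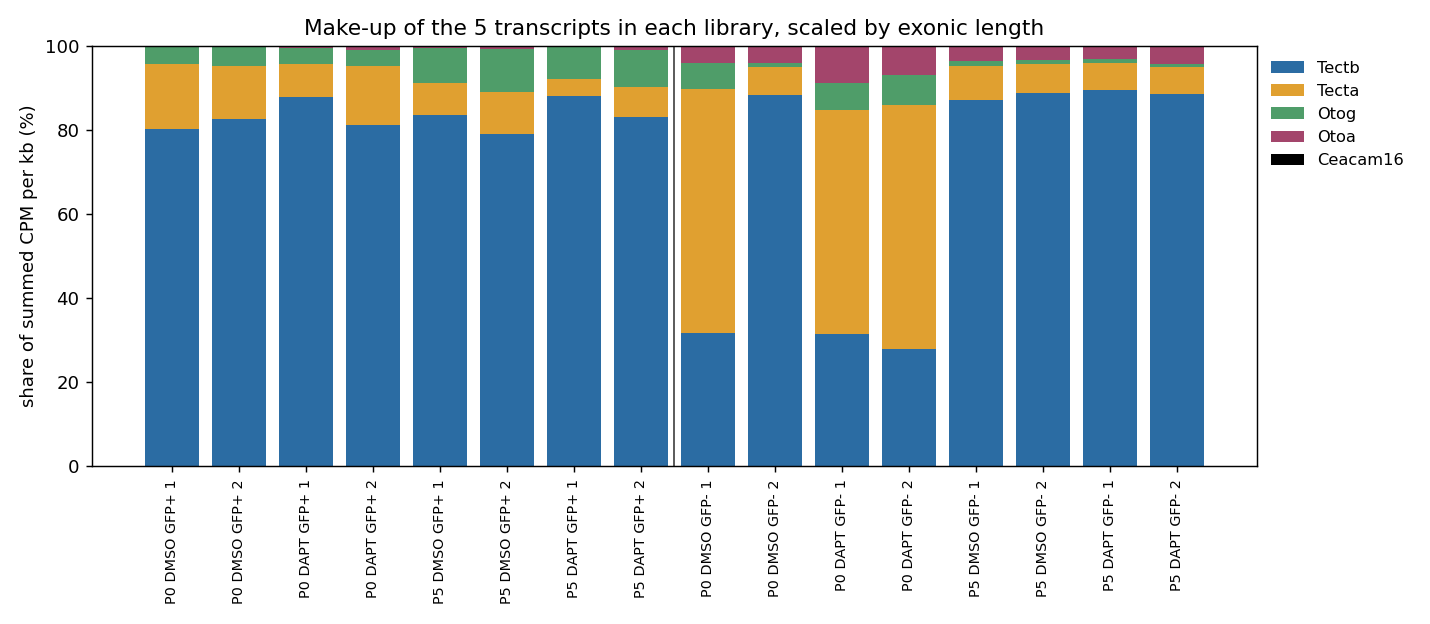
Share of the summed CPM per kb of exonic length taken by each of the 5 transcripts, in percent, for each library (GFP+ left of the line, GFP- right). Tectb dominates all GFP+ and P5 GFP- libraries, and Tecta takes 53.31 to 58.07% in P0 DMSO GFP- replicate 1 and both P0 DAPT GFP- libraries but 6.733% in P0 DMSO GFP- replicate 2.

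To ask where these genes were active, the fractions of the DMSO cultures were compared by edgeR's quasi-likelihood test. The limits were a fold change above 2 with an adjusted p, over all genes tested, below 0.01. A fit with 1 library left out keeps 1 library in that group. Its p-values leave out the spread of that group, so a pass in such a fit is not support for a difference. At P5, Otog was 24.3-fold higher in GFP+ cells (log2 fold change 4.60, SE 0.30, edgeR adjusted p = 0.000561) and Tecta 3.18-fold higher (1.67, SE 0.29, adjusted p = 0.00492). These were 2 of the 5 genes tested, against 33.9% of all 19008 genes (18.4% higher and 15.5% lower). Tectb (2.49-fold higher in GFP+ cells, log2 fold change 1.32, SE 0.35, adjusted p = 0.0199) and Otoa (2.23-fold lower, -1.16, SE 0.28, adjusted p = 0.0137) missed the limits in edgeR, and both passed with DESeq2. With 1 library left out, their log2 fold changes ran from 1.03 to 1.58 (Tectb) and from -1.55 to -0.90 (Otoa). Ceacam16, at 1.63 (SE 0.71, adjusted p = 0.0919), did not pass. The Tecta call was lost without either P5 DMSO GFP- replicate and on library totals without TMM. The scaling moved the median of all genes from -0.03 to -0.37 and the calls from 3499 higher and 2951 lower to 2727 higher and 4202 lower.

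At P0, Otog alone passed the limits, at 8.09-fold higher in GFP+ cells (log2 fold change 3.02, SE 0.39, edgeR adjusted p = 0.00245). This was 1 of the 4 genes tested, against 40.9% of all 21779 genes (25.5% higher and 15.5% lower), since Ceacam16 had too few counts. Tecta (1.63, SE 0.51, adjusted p = 0.0328), Tectb (2.08, SE 0.99, adjusted p = 0.115) and Otoa (-2.52, SE 0.60, adjusted p = 0.0125) did not pass, and 1 GFP- library decided their size. Without replicate 2 of P0 DMSO GFP- the log2 fold change of Tectb was 4.47 and that of Otoa -1.38. Without replicate 1 they were 1.15 and -3.23. Tecta and Otog changed less, to 1.09 and 2.56 without replicate 2. The p-values of these fits rest on the spread of the GFP+ libraries alone and are not given. Without replicate 1 or 2 of P0 DMSO GFP+ Otog was at 2.93 and 3.05, and its call was lost. Whether the fraction difference changed with age was not resolved for Tecta, Tectb, Otog or Otoa. Their edgeR interaction adjusted p ran from 0.283 to 1, where 0.0344% of 23257 genes passed (0.0172% higher and 0.0172% lower). Ceacam16 had too few counts in P0 DMSO GFP+ cells for this question. Without replicate 2 of P0 DMSO GFP- the interaction values were -3.20 (Tectb), 2.00 (Otog), 0.53 (Tecta) and 0.17 (Otoa).

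The other genes of the tectorial membrane followed another order. Of 9 collagens and proteoglycans of the membrane, none was higher in GFP+ cells and 8 were lower past the limits in GFP+ against GFP- cells at each age, against 15.5% of all genes at both ages, with median log2 fold changes of -3.95 at P0 and -3.21 at P5 against medians over all genes of 0.18 and -0.03. Without replicate 2 of P0 DMSO GFP- the P0 median was -3.07. No call was kept without either P0 DMSO GFP+ library, in this list or among all genes. At P5 the median ran from -3.445 to -2.896 with 1 library left out. Col5a2, a chain of type V collagen, had the lowest values of the list, at -5.81 (-5.86 without that GFP- library) and -4.27. Col11a1, which encodes a fibril-forming chain, did not pass at either age (log2 fold changes -1.62 and -1.16, edgeR adjusted p = 0.0216 and 0.0119). These collagens are also made by cartilage and mesenchyme, whose markers were abundant in the GFP- fraction, and their part in the difference was not tested. Of 8 other otic matrix genes, Strc, Otol1 and Umodl1 were higher in GFP+ cells past the limits at both ages, 3 of 8 against 25.5% and 18.4% of all genes. Stereocilin (Strc) links hair bundles to the membrane, otolin (Otol1) is an otoconial collagen-like protein, and Umodl1 encodes a zona pellucida domain protein as the tectorins do. Umodl1 had the largest difference of the list, at log2 fold changes of 8.77 at P0 and 9.08 at P5, from 60.9 ± 17.3 against 0.150 ± 0.0589 CPM and 409 ± 16.4 against 0.829 ± 0.309 CPM. On the lower side 3 of the 8 genes passed at each age, against 15.5% of all genes at both. At P0 they were Coch (-6.13), Oc90 (-4.59) and Sparcl1 (-3.74), which encode cochlin of the spiral limbus, otoconin and a matrix protein related to SPARC, and at P5 they were Sparcl1 (-3.93), Emilin2 (-3.80) and Otos (-3.32). The P0 values of some of these rested on the library that went against its label. In P0 DMSO GFP- cells Coch stood at 185 CPM in replicate 1 and 1370 CPM in replicate 2. Without replicate 2 it was at -4.11, behind Oc90 at -5.28. In that fit Sparcl1 was at -3.43 and Emilin2 at -2.28, and the list median went from -4.17 to -1.40. Umodl1, Strc and Otol1 were higher in GFP+ cells in it as well, at 9.14, 3.53 and 3.44.

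**Figure D3:**
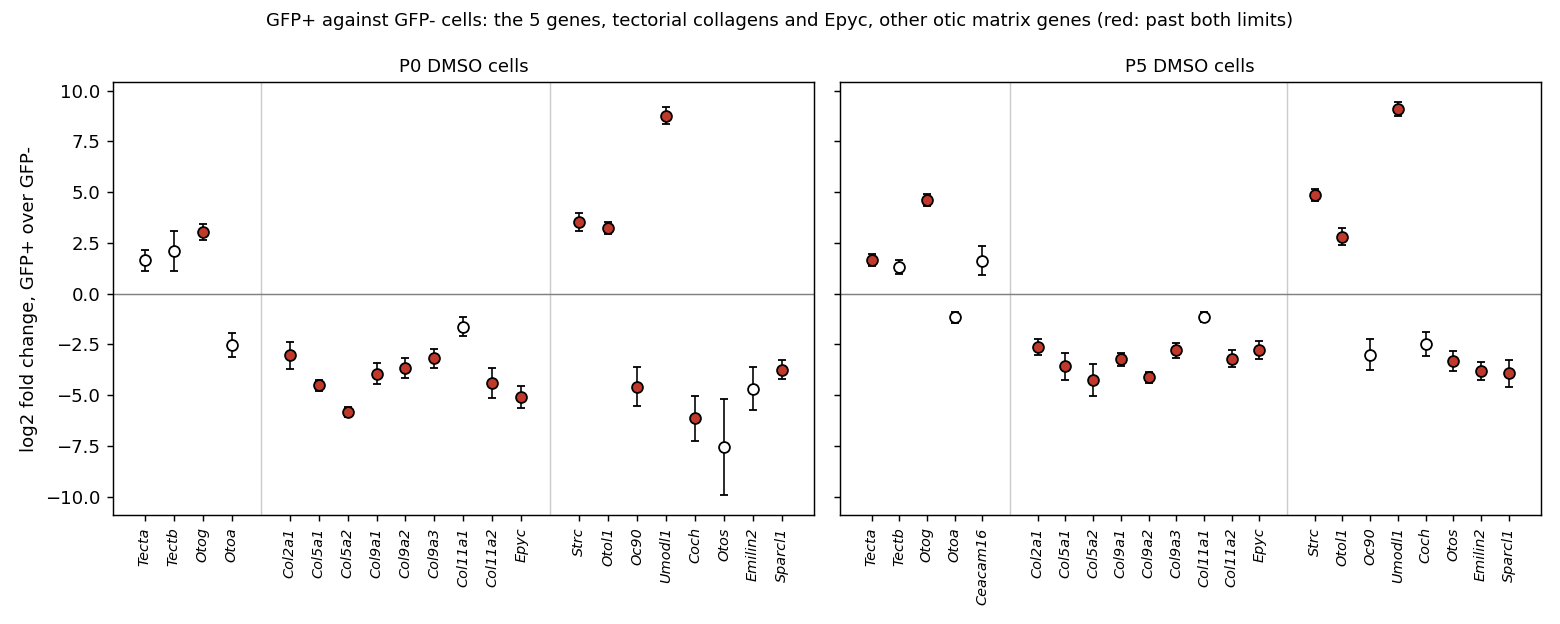
Log2 fold change of GFP+ over GFP- DMSO cells with its standard error, at P0 (left) and P5 (right), for the tested genes among the 5, for 9 tectorial collagens and proteoglycans and for 8 other otic matrix genes. Red points passed both limits. Otog, Tecta and Tectb lie above 0 at both ages beside Strc, Otol1 and Umodl1, while 8 of 9 collagens and proteoglycans passed below 0.

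To ask how Notch signalling bore on these genes, DAPT was compared with DMSO. In P0 GFP+ cells all 6 Notch target genes (Hes1, Hes5, Heyl, Hey1, Hey2 and Nrarp) fell past the limits, with a median log2 fold change of -3.76, and 8 of 10 hair cell markers rose, their summed level going from 319.9 to 476.2 CPM in DMSO to 2747 to 3128 CPM in DAPT. Otoa was the member that passed the limits, 3.08-fold higher with DAPT (log2 fold change 1.62, SE 0.32, edgeR adjusted p = 0.007). This was 1 of the 4 genes tested, against 8.37% of all 20711 genes (4.2% higher and 4.17% lower). Tecta (-0.83, SE 0.23, adjusted p = 0.0262), Otog (-0.54, SE 0.13, adjusted p = 0.015) and Tectb (-0.34, SE 0.14, adjusted p = 0.111) were lower with DAPT without passing. In this comparison 8343 of the 20711 genes had an unadjusted p under 0.05. The Otoa call was lost without replicate 2 of P0 DAPT GFP+ (log2 fold change 1.08) and without replicate 2 of P0 DMSO GFP+ (1.36). With 1 library left out, Tecta ran from -1.15 to -0.47. The part of hair cell transcripts in these values was not tested. An effect of DAPT here cannot be told apart from a difference between library runs.

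At P5, none of the 5 genes passed the limits for DAPT in GFP+ cells. Their log2 fold changes ran from -0.39 (Tecta, SE 0.21) to 0.42 (Tectb, SE 0.26), with edgeR adjusted p from 0.977 to 1. Of the 18754 genes tested, 0% passed the limits, 953 had an unadjusted p under 0.05, and DESeq2 called 60. None of the 6 Notch targets passed, although their median was -1.80. The response to DAPT was not shown to differ between the ages for Tecta, Tectb, Otog or Otoa. The edgeR interaction values were -1.50 (SE 0.56, adjusted p = 0.164) for Otoa, 0.75 (SE 0.31, adjusted p = 0.195) for Tectb and 0.66 (SE 0.26, adjusted p = 0.183) for Otog. Of 22199 genes, 1.1% passed (0.392% higher and 0.712% lower). Ceacam16 had too few counts in P0 GFP+ cells for this question.

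In GFP- cells no member passed for DAPT at either age (edgeR adjusted p = 1 for all 5 at P5 and for all but Ceacam16 at P0), and 0% of all genes did so at both. Unadjusted p was under 0.05 for 614 of 17357 genes at P0 and 342 of 17286 at P5, and DESeq2 called 28 and 8 genes. The P0 comparison rested on the library that went against its label. With it, Tectb was at -2.39 (SE 1.12) with DAPT and Tecta at 0.61 (SE 0.50). Without it these were 0.06 and 0.11. Otoa went from -0.08 (SE 0.63) to 1.13 and Otog from 0.70 (SE 0.40) to 0.29. Ceacam16 entered the P0 comparison only through its DMSO counts, 12 and 12 against 9 and 3 with DAPT, so these are a description with no test. Without the other P0 DMSO GFP- library Tectb was at -3.27. At P5 the log2 fold changes ran from -0.38 (Ceacam16, SE 0.63) to 0.70 (Otoa, SE 0.44).

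**Figure D4:**
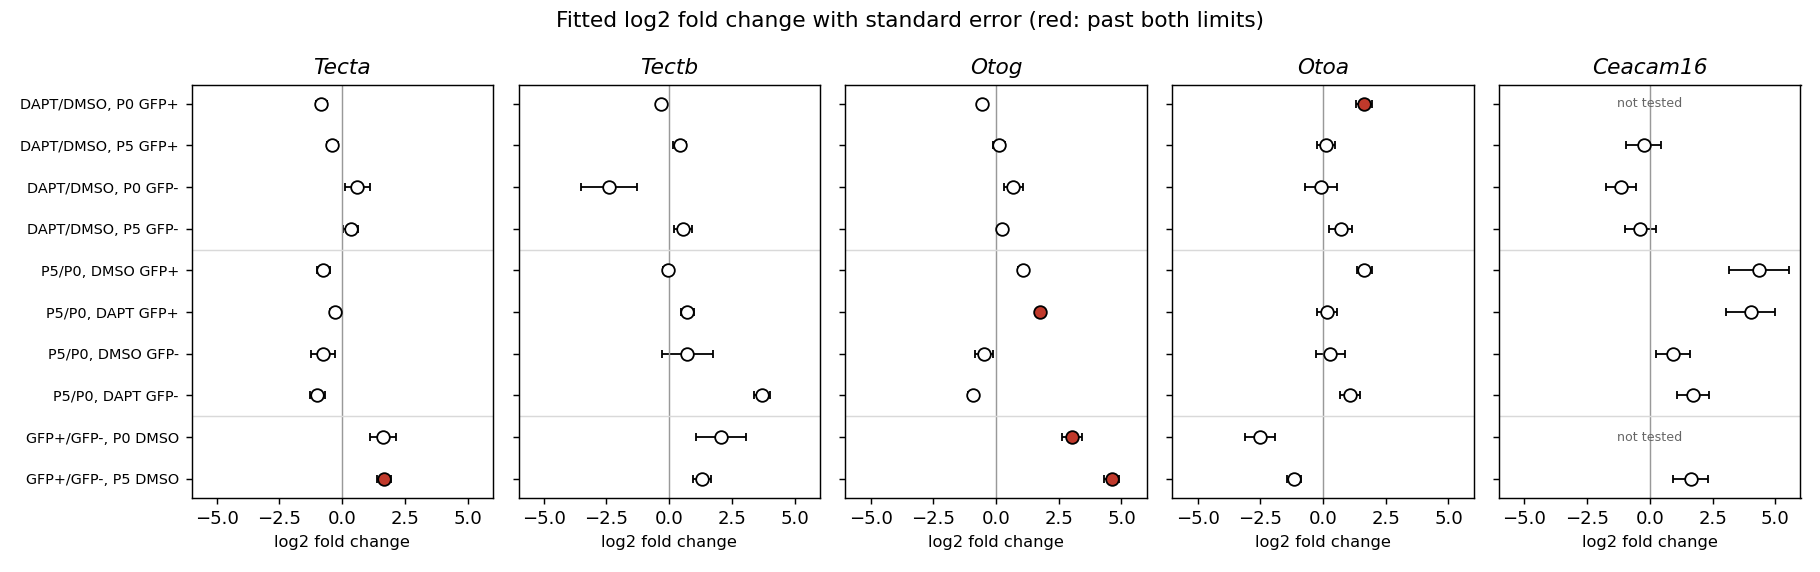
Fitted log2 fold change with standard error of each gene in 10 comparisons, named at the left as first group over second. Red points passed both limits. Otoa passed for DAPT in P0 GFP+ cells, Otog for age in DAPT GFP+ cells and between the fractions at both ages, and Tecta between the fractions at P5. Comparisons in which Ceacam16 had too few counts are marked as not tested. Its points for DAPT in P0 GFP- cells and for age in GFP+ and DAPT GFP- cells are a description only, since it entered them through its higher group.

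To follow the genes with age, P5 was compared with P0 in each fraction, and Otog was the member that rose past the limits. In DAPT GFP+ cells, where both ages came from the same run of libraries, it was 3.41-fold higher at P5 (log2 fold change 1.77, SE 0.18, edgeR adjusted p = 0.00206). Tecta, Tectb and Otoa did not pass, while 5.78% of all 18776 genes did (3.04% higher and 2.74% lower). The Otog call was lost without replicate 1 or replicate 2 of P0 DAPT GFP+ (log2 fold change 1.88 and 1.64), as were most calls among all genes. In DMSO Otog was 2.12-fold higher at P5 (1.08, SE 0.19, edgeR adjusted p = 0.0112), which missed the limit on adjusted p. It passed with DESeq2, without the filter on low counts and without mitochondrially encoded genes. With 1 library left out its DMSO value ran from 0.86 to 1.32. These age comparisons share no library, and Otog was higher at P5 in both. The summed mesenchyme markers were higher at P5 as well, at 415.8 to 1740 CPM against 119.6 to 246.5 CPM, and their part in the Otog difference was not tested.

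Otoa was 3.12-fold higher at P5 in DMSO GFP+ cells (log2 fold change 1.64, SE 0.31, edgeR adjusted p = 0.0145), just outside the limits. It was 1.12-fold higher in DAPT GFP+ cells (0.16, SE 0.39, adjusted p = 0.825). With 1 library left out its DMSO value ran from 1.27 to 2.00. The DMSO comparison shares its P0 DMSO GFP+ libraries with the DAPT comparison at P0. Tectb and Tecta did not pass in either treatment. Tectb was at -0.05 (SE 0.18) in DMSO and 0.73 (SE 0.25, adjusted p = 0.0924) in DAPT, and Tecta at -0.74 (SE 0.26, adjusted p = 0.0972) and -0.29 (SE 0.21, adjusted p = 0.408). With 1 library left out, Tectb in DAPT ran from 0.30 to 1.03 and Tecta in DMSO from -1.04 to -0.41. In DMSO GFP+ cells none of Tecta, Tectb, Otog and Otoa passed, against 3.32% of 20844 genes (2.01% higher and 1.3% lower). Tecta, Otog and Otoa had unadjusted edgeR p of 0.02, 0.000407 and 0.000614, and DESeq2 called Otog and Otoa.

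Ceacam16 entered the age comparisons of GFP+ cells only through its P5 counts, so its values are a description with no test. Pooled over replicates, it had 57 counts at P5 against 3 at P0 in DMSO GFP+ cells, a ratio of 22.8 after scaling (95% counting interval 7.43 to 114), and 46 against 3 in DAPT GFP+ cells, a ratio of 18.3 (5.88 to 91.97). In GFP- cells the ratios were 2.00 (1.20 to 3.41) from 48 and 24 counts in DMSO and 3.21 (1.64 to 6.75) from 38 and 12 counts in DAPT. These intervals cover counting error only.

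In GFP- cells the age comparison in DMSO gave no call (0% of 17423 genes in edgeR, 135 at an unadjusted p under 0.05 and 1 with DESeq2), and the values of 4 of the 5 genes moved with the library that went against its label. Tectb was at 0.73 (SE 1.01) with it and at 3.18 without it, and Otoa at 0.30 (SE 0.58) and 1.50. Tecta and Otog went from -0.76 and -0.48 to -1.25 and -0.89. Ceacam16 was at 0.92 (SE 0.69) with it and 1.10 without it, and at 0.19 and 1.41 without P5 replicate 1 or 2. Since DAPT GFP- cells hold no such library, their ages were compared as well, a comparison added after these values were seen. There Tectb was 13.1-fold higher at P5 (log2 fold change 3.71, SE 0.32, edgeR adjusted p = 0.0101), narrowly outside the limits, and DESeq2 called it. Without replicate 1 or 2 of P5 DAPT GFP- Tectb was at 4.05 and 3.28 and Otoa at 1.61 and 0.31. With all libraries of these groups Tecta was at -0.99 (SE 0.30, edgeR adjusted p = 0.115), Otog at -0.93 (SE 0.20, adjusted p = 0.0556) and Otoa at 1.09 (SE 0.40, adjusted p = 0.166). Neither these nor Tectb passed, against 0.354% of 17528 genes (0.291% higher and 0.0628% lower). In the same cells the summed cartilage and bone markers stood at 280 to 338 CPM at P0 and 2280 to 2859 CPM at P5, with 2 of 7 past the limits. The 6 markers of the greater epithelial ridge, the epithelium beside the organ of Corti, summed to 1392 to 1591 CPM and 2193 to 3079 CPM, with none higher past the limits and Crabp1 lower. Their part in the Tectb difference was not tested.

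Some other matrix genes rose with age in GFP+ cells, where markers of other cell types were higher too. Summed markers of cartilage and bone stood at 6.465 and 7.967 CPM in P0 DMSO GFP+ and 81.82 and 370.7 CPM in P5 DMSO GFP+ libraries, and those of mesenchyme at 215.3 and 246.5 CPM and 415.8 and 1715 CPM. Their list medians with age were 2.42 and 2.33 in DMSO, with 2 of 6 and 0 of 8 genes past the limits, against 2.01% of all genes higher and 1.3% lower. Of the 9 tectorial collagens and proteoglycans, Col11a2 (log2 fold change 1.36, edgeR adjusted p = 0.00148) and Epyc (2.71, adjusted p = 0.00258) rose past the limits in DMSO, and Col9a1, Col11a1, Col11a2 and Epyc did so in DAPT, with medians of 0.83 and 1.53 against -0.02 and 0.02 over all genes. Epyc encodes epiphycan, a small leucine-rich proteoglycan, and it is also a marker of the greater epithelial ridge. Of the 8 other otic matrix genes, Strc, Umodl1, Coch and Otos rose past the limits in DMSO and none in DAPT. Beside both lists, 2.01% of all genes rose past the limits in DMSO and 3.04% in DAPT. Coch stood at 253 and 71.7 CPM in the P5 DMSO GFP+ libraries, replicate 1 of which also had the higher mesenchyme sum, and at 870 to 1159 CPM in P5 DMSO GFP- libraries. Without that replicate Coch, Otos, Col11a2 and Epyc were at 2.80, 2.97, 1.35 and 2.14, and the call of Otos was lost without replicate 1 of P0 DMSO GFP+. In DAPT the calls of the 9 collagens and proteoglycans did not hold without either P0 library, and the calls of both lists changed with the library left out. With 1 library left out, the median of the 9 collagens and proteoglycans ran from 1.30 to 1.56. That of the 8 otic matrix genes ran from 1.17 to 2.10. The part of other cell types in these values was not tested. The first 2 of these also rose with DAPT at P0, by log2 fold changes of 1.20 (Strc, edgeR adjusted p = 0.00786) and 2.11 (Umodl1, adjusted p = 8.24e-05), measured against the same P0 DMSO GFP+ libraries as Otoa, while Sparcl1 (-1.37) and Col9a1 (-1.11) fell. In GFP+ libraries Strc stood at 11.04 and 11.61 CPM (DMSO) and 32.0 and 21.5 CPM (DAPT) at P0, and at 52.3 and 60.1 CPM (DMSO) and 58.2 and 68.7 CPM (DAPT) at P5.

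The machinery that folds and exports such proteins was described by 17 genes of the secretory pathway, of which 2 passed for DAPT in P0 GFP+ cells, against 8.37% of all genes. Pdia4, an endoplasmic reticulum protein disulfide isomerase, fell (log2 fold change -1.01, edgeR adjusted p = 0.000438), and Hpn, a transmembrane serine protease, rose (1.60, adjusted p = 0.00184). The list median was -0.26 against -0.05 over all genes. With age Creb3l1, a membrane-bound transcription factor of secretory cells, rose and Pcsk6, a proprotein convertase, fell in DMSO GFP+ cells (2.14 and -1.36), 2 of 17 against 3.32% of all genes. Hpn alone passed in DAPT GFP+ cells, where it fell (-2.02), against 5.78%, and the list medians with age were -0.06 in DMSO and 0.57 in DAPT. In GFP+ against GFP- cells 7 of the 17 were lower past the limits at P0 and 5 at P5, against 15.5% of all genes at both ages, and none was higher, with medians of -0.81 and -0.75. Without replicate 2 of P0 DMSO GFP- the P0 median was -0.74, and at P5 the median ran from -0.94 to -0.61 with 1 library left out. Sec24d, a coat subunit of vesicles that leave the endoplasmic reticulum, and Pdia6, a disulfide isomerase, were lower past the limits at both ages.

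The genes whose log2(CPM + 1) values were most like those of each member over the 16 libraries were taken from 16225 genes with a mean of at least 1 CPM, as a description only, since the libraries form a GFP+ and a GFP- set that these correlations span. Otog was most like Gm13420 (Pearson r = 0.988), BC006965 (0.986) and Rps6ka3 (0.983), and Tectb most like Rnf128 (0.972), Myo1e (0.963) and Col4a3 (0.956). For Tecta they were Tarsl2 (0.919), D130043K22Rik (0.900) and Hs6st3 (0.895). Otoa was nearest to Tollip (0.968), Ppp6c (0.950) and Serinc3 (0.941), and Ceacam16 to Stambpl1 (0.954), Ighm (0.946) and Lgr6 (0.944).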

How the data were processed

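RNA-seq of 16 libraries, 2 in each of 8 groups, was used as gene counts deposited by the authors, 1 table per library, with no normalisation. The submitters' processing notes name TopHat 1.4.0, HTSeq, DESeq 1.9.2 and the mm9 build. The strand setting of counting is not given in the sources used here. Per the labels, cDNA from small cell numbers was amplified before library preparation, which can distort levels. The study's supplement describes such an amplification for the cultured GFP+ and GFP- samples. Depth, given in the report, limits Ceacam16 most. The 5 closing lines of each table, which name no gene, were left out of library sizes and tests; records outside genes took the shares given in the report.

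Groups followed the labels. Each comparison used only the groups compared, with edgeR 4.0.16 in R 4.3.3 (filterByExpr with a minimum count of 10 and a minimum total of 15, TMM, glmQLFit and glmQLFTest, two-sided), and p-values were adjusted by the Benjamini-Hochberg method over all genes tested. SE is the log2 fold change divided by the root of F. The limits, a fold change above 2 with an adjusted p below 0.01, follow the study's methods. CPM was scaled by TMM over all 16 libraries, and CPM per kb used the union of annotated exons. No pair of replicates agreed within sampling noise in a chi-square test over genes. Code was tested on simulated counts.

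Alternatives were DESeq2 1.42.0, its size factors, library totals, no filter, all 8 groups in 1 fit, a replicate block, an adjusted p under 0.05, removal of the 37 mitochondrially encoded genes and each library left out. The gene lists were also refitted with each library left out, an alternative chosen after seeing the data.

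The members and lists were chosen with earlier results of these data known. The text names the 6 members, the 3 genes most like each, Strc and, per list and comparison, up to 3 genes past the limits with the largest change. Otol1, Col11a1, Col11a2 and list genes in the fits with a library left out were named beyond this rule after their values were seen.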

Additional observations from a re-analysis of the deposited data

How the results depend on the processing

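With 2 libraries a group, the number of the 5 genes past the limits moved with the setting in most comparisons. Between the fractions at P0 it went from 1 to 2 on library totals without TMM, 2 without the filter, 3 with DESeq2, 3 with all 8 groups in 1 fit and 3 at an adjusted p under 0.05, and from 0 to 4 with 1 library left out. At P5 it went from 2 to 4 without the filter, with DESeq2 and at the adjusted p under 0.05, and from 1 to 3 with 1 library left out, and on library totals without TMM the 2 were Otog and Otoa. Ceacam16 is not counted with age, since it had no test there. In DMSO GFP+ cells the number went with age from 0 to 2 (DESeq2), 2 (adjusted p under 0.05) and 1 (no mitochondrially encoded genes). Without the filter Otog and Otoa passed in these cells. In DAPT GFP+ cells it stayed at 1, and in DAPT GFP- cells it went from 0 to 1 (no filter, DESeq2, adjusted p under 0.05). With 1 library left out it moved in each of these comparisons and in DMSO GFP- cells. For DAPT at P0 it went from 1 to 0 in GFP+ cells with all 8 groups in 1 fit and from 0 to 1 in GFP- cells with 1 library left out. The interaction of age and DAPT gave 1 without the filter, and that of age and fraction 0 to 1 with 1 library left out. Fits with 1 library left out hold no spread for that group, so their counts describe how unsteady the calls are. The cause of these moves was not tested.

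Among all genes, calls for DAPT in P0 GFP+ cells went from 1733 to 1089 with all 8 groups and 3761 at the adjusted p under 0.05. With age they went from 691 to 1961 (no filter), 1598 (DESeq2) and 2003 (adjusted p under 0.05) in DMSO GFP+ cells, from 1085 to 2606, 2183 and 2242 under the same settings in DAPT GFP+ cells, and from 62 to 1283, 1226 and 869, to 8 without TMM and to 0 with all 8 groups in DAPT GFP- cells. The interaction of age and DAPT went from 245 to 906, 838 and 758, and that of age and fraction from 8 to 92, 301 and 46 and to 58 with all 8 groups. DAPT at P5 in GFP+ cells went from 0 to 108 without the filter. Library totals without TMM moved the median of all genes between the fractions at P0 from 0.18 to -0.11. On totals without mitochondrially encoded genes, in place of TMM scaling, 14 mean levels of a gene in a group moved by at least its SD and 26 did not. On library totals without TMM 3 moved and 37 did not.

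A replicate block was fitted because the labels number the libraries 1 and 2, but nothing says what a number shares, and the correlation of same-numbered deviations ran from -0.251 to 0.726. With the block the genes past the limits were 2 between the fractions at P0, 3 at P5 (Otog, Tecta and, newly, Otoa at an adjusted p of 0.00517), 2 with age in DMSO GFP+ cells and 2 in DAPT GFP- cells, and calls among all genes were 1050, 1761 and 1200 with age in DMSO GFP+, DAPT GFP+ and DAPT GFP- cells. Otoa for DAPT in P0 GFP- cells was 0.20 with the block.

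Directions turned for values near 0. Otoa for DAPT in P0 GFP- cells was 0.00677 without TMM, Tectb with age in DMSO GFP+ cells 0.0225 without the filter, and Tecta in the interaction of age and fraction 0.0314 without TMM, 0.00554 with all 8 groups and 0.000396 without mitochondrially encoded genes. With 1 library left out, the log2 values for DAPT in P5 GFP+ cells ran from -0.0092 to 0.74 (Tectb), -0.13 to 0.36 (Otog), -0.38 to 0.50 (Otoa) and -0.79 to 0.24 (Ceacam16), in P0 GFP- cells from -3.27 to 0.058 (Tectb) and -0.74 to 1.13 (Otoa), and in P5 GFP- cells from -0.0906 to 0.67 (Tecta), -0.0771 to 1.19 (Otoa) and -0.86 to 0.35 (Ceacam16). With age they ran from -0.17 to 0.081 (Tectb) in DMSO GFP+ cells, from -1.25 to 0.0287 (Tecta), -0.13 to 3.18 (Tectb), -0.89 to 0.10 (Otog) and -0.35 to 1.50 (Otoa) in DMSO GFP- cells, and from -0.58 to 0.0557 (Tecta) and -0.36 to 0.72 (Otoa) in DAPT GFP+ cells. The interactions ran from -3.86 to 0.53 (Ceacam16, age and DAPT), -0.76 to 0.53 (Tecta, age and fraction) and -3.20 to 0.0946 (Tectb, age and fraction). Of the values for single genes, 422 under settings other than leaving out a library kept their direction and side of the limits, 34 passed newly, 2 were lost and 6 turned. These counts include Ceacam16, also where its values are a description only. The adjusted p under 0.05 uses the same fit as the main result, so no value could turn or be lost under it. With 1 library left out, 29 values turned.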
